A study of Saccharomyces cerevisiae with 12 samples.

Results

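The left end of chromosome VII of budding yeast was described through 7 genes that lie next to the telomere. In order from the end they are COS12, YGL262W, YGL260W, YPS5, VEL1, MNT2 and ADH4. The genes were taken by name from the first column of 4 tables of normalized read counts, which together name 6078 genes. All 7 were measured in the table that compares the genotypes in hypoxia. COS12, YPS5, VEL1, MNT2 and ADH4 were measured in all 4 tables, and YGL262W and YGL260W were used here from the hypoxic table alone. In the R64 reference the stretch from the telomere to the far end of ADH4 spans 16307 bp and holds 9 annotated genes, the other two being PAU11, between YGL262W and YGL260W, and YGL258W-A, between YPS5 and VEL1.

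RNA was sequenced from set4Δ and wild-type cells to ask how the protein Set4 affects gene expression with and without oxygen. The mutant carried set4Δ::HIS3MX, in which the gene is replaced by a selection marker, and both genotypes were in the BY4741 background, a MATa laboratory strain with the alleles his3Δ1, leu2Δ0, met15Δ0 and ura3Δ0. Cells grew in rich medium (YPD) at 30 °C to mid-log phase. The groups were set4Δ cells in hypoxia, set4Δ cells in air, wild-type cells in hypoxia and wild-type cells in air, with 3 libraries each, and hypoxia meant 18 h in sealed pouches that take up oxygen. The labels do not say whether the 3 libraries of a group came from separate cultures, so that p-values measure the spread between these libraries, which may be technical. Each genotype is a single strain.

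Yeast genes close to a telomere lie in chromatin that can be silenced by the Sir proteins, and they include many families with members at several chromosome ends. The left end of chromosome VII is a classic site for the study of this position effect, because the reporter gene URA3 is commonly placed there, at the ADH4 locus. Set4 is a SET domain protein that yeast cells make in larger amounts when oxygen is low. Of the genes described here, COS12 encodes an endosomal protein of the COS family, which takes part in the turnover of plasma membrane proteins. YPS5 encodes a protein similar to GPI-anchored aspartic proteases (yapsins), VEL1 a protein of unknown function that is induced when zinc is scarce, MNT2 a mannosyltransferase that extends O-linked glycans, and ADH4 an alcohol dehydrogenase that is also induced by zinc deficiency. YGL262W and YGL260W encode hypothetical proteins.

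On R64, COS12 lies at chrVII:2790-3932, YGL262W at chrVII:5312-5839, YGL260W at chrVII:6860-7090, YPS5 at chrVII:8470-8967 and VEL1 at chrVII:11110-11730, all on the plus strand. MNT2 lies on the minus strand at chrVII:12481-14157, and ADH4 on the plus strand at chrVII:15159-16307. PAU11, a seripauperin gene, lies on the minus strand at chrVII:6290-6652, so that PAU11 and YGL260W point away from each other. The 207 bases between their coding sequences are shown because the results turn on the contrast between these neighbours, with capitals for the only TATAAA word in the gap, which reads TATAAA on the strand of PAU11 and starts 100 bases before its start codon. The word TATAAA occurs on either strand in the 500 bases before the start codon of 4 of the 7 genes (COS12, YGL260W, VEL1 and ADH4) and of 60.5% of 6002 protein-coding genes, and a match is a description of the sequence alone.
PAU11 to YGL260W, chrVII:6653-6859, plus strand: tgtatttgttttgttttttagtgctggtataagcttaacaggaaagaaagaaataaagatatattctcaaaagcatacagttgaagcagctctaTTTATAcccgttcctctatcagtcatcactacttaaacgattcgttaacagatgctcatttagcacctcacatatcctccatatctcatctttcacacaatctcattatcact

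The 500 bases upstream of each gene were searched on both strands for 4 further words. ATTGTT, the core of the sites bound by Rox1, a repressor of hypoxic genes in air, was found in 2 of the 7 windows, those of YPS5 and VEL1, with 2 copies in each, against 48.9% of all 6002 windows with at least 1 copy. AGGGG, the stress response element, was found once before YPS5 and once before MNT2, against 34.1% of all windows. TCGTATA, a word of the sites bound by Upc2, an activator of sterol and anaerobic genes, was found in none of the 7 and in 6.998% of all windows. The element of the zinc-responsive activator Zap1, searched as the words ACCTT and AAGGT with 1 base between them, was found in none of the 7 and in 0.150% of all windows, and the longer and looser forms of such elements were not searched. For Rox1, 2 of 7 lies below the share over all windows, and the share of windows with 2 copies was not computed. A match is a description of the sequence alone, and a part of Rox1 in the levels of these genes was not tested. The stretches that hold the cores are shown for YPS5 and VEL1, the members that have them, with the cores in capitals.
YPS5 upstream, chrVII:8054-8127, plus strand: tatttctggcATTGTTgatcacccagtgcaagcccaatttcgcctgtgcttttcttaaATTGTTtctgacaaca
VEL1 upstream, chrVII:10824-10863, plus strand: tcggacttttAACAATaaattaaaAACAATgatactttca
The cores start 406 and 358 bases before the start codon of YPS5. Before VEL1 they read AACAAT on the plus strand, since ATTGTT lies on the other strand, and start 276 and 262 bases before the start codon.

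Sequence shared with other places limits what a read count can say about some of these genes, since the handling of reads with several positions is not stated by the sources at hand. Of the 50-base words of YGL260W, 72.5% occur elsewhere in the genome, and 38.3% of those of YPS5 do, all of them in YPS6, another yapsin gene. VEL1 shares 2.27% of its words, all with its paralog YOR387C, and COS12, YGL262W, MNT2 and ADH4 share none. PAU11 shares 63.1% of its words, with 12 other PAU genes. The pair of primers that the study used to measure YPS5 by RT-qPCR is shown because its second primer matches the genome at 2 places, the other one in YPS6, while its first primer matches only YPS5.
YPS5 primer 1, chrVII:8695-8714, plus strand: cctccacaaacggtgtacct
YPS5 primer 2, chrVII:8755-8774, minus strand: ttgcaataggcaatgtcagc

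Over the 24 library columns, the deposited values were whole multiples of the value of 1 read, so that totals of 16740111 to 27572406 reads over the listed genes could be read back. SET4 had 0, 3.78 and 0 normalized counts in the 3 set4Δ libraries in air, against 167, 226 and 208 in wild-type libraries in air. In the hypoxic libraries it had 16.6 to 26.0 in set4Δ cells, against 4898 to 8574 in wild-type cells, values that come from separately normalized tables. All 5 MATa markers were expressed, with STE2 at 3429 to 13652, whereas of the 4 MATα markers STE3 was at 18.6 to 53.0, MF(ALPHA)2 at 71.9 to 162, SAG1 at 350 to 958 and MF(ALPHA)1 not listed. The chi-square per gene between libraries of 1 group, which is about 1 for sampling noise alone, was 10.9 to 47.3 in air and 33.4 to 132 in hypoxic wild-type cells over all tables. In hypoxic set4Δ cells it was 159 to 167 between library 3 and libraries 1 and 2, against 11.5 to 14.7 between libraries 1 and 2. The comparisons that use hypoxic set4Δ cells are therefore also given without library 3. Library 3 of hypoxic wild-type cells also stood apart, at 65.3 to 132 from the others, against 33.4 to 39.5 between libraries 1 and 2. Across genes, both libraries numbered 3 deviated alike in hypoxia (correlation 0.74). Fits without set4Δ library 3 alone thus leave that shared deviation on the wild-type side.

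In hypoxic cells, none of the 7 genes differed between set4Δ and wild type beyond the threshold, while their neighbour PAU11 was about 20-fold higher in set4Δ cells. limma, on log2 values after adding 1, called 0 of the 7 genes higher, against 0.817% of the 5875 genes tested, and 0 of 7 lower, against 0.391%, at an adjusted p of at most 0.05. Called genes passed Benjamini-Hochberg adjustment over all genes of the table. edgeR and DESeq2 on the recovered reads also called none of the 7, and 1 of them, MNT2, had an unadjusted p under 0.05. PAU11 had 5568, 3782 and 5845 normalized counts in set4Δ cells, against 276, 160 and 320 in wild-type cells, with no overlap between the groups (log2 fold change 4.36, SE 0.28, adjusted p = 0.0012 from limma, and 4.24 without set4Δ library 3).

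YGL260W, whose start codon lies 207 bases from that of PAU11, had 9.80, 7.97 and 14.6 normalized counts in set4Δ cells, against 11, 10.3 and 19.2 in wild-type cells. The ranges overlapped, and the log2 fold change was -0.28 (95% interval -1.26 to 0.69, adjusted p = 0.85 from limma). The upper end of this interval lies below the lower end of that of PAU11, which is 3.69. The counts of YGL260W rest on 8 to 21 reads a library, so that a difference inside that interval was not detectable at this depth. YGL262W, on the other side of PAU11, had 16.9, 9.96 and 24.4 normalized counts in set4Δ cells, against 25.3, 8 and 14.6 in wild-type cells. All set4Δ values lay inside the wild-type range, and its log2 fold change was 0.14 (95% interval -1.06 to 1.35), from 7 to 25 reads a library.

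COS12, the gene nearest to the telomere, had 95.3, 42.8 and 59.6 normalized counts in set4Δ cells, against 67.1, 27.4 and 51.2 in wild-type cells. The highest value was from a set4Δ library and the lowest from a wild-type library, but the groups overlapped, with a log2 fold change of 0.45 (95% interval -0.50 to 1.40, adjusted p = 0.73 from limma). In both genotypes library 2 held the lowest value of COS12, as it did for YGL262W, YGL260W, VEL1 and PAU11, so that 4 of the 7 genes and this neighbour shared their lowest library. Both libraries numbered 2 deviated alike across genes in hypoxia (correlation 0.72), and the share of all genes with this trait was not computed. YPS5 had 137, 118 and 109 normalized counts in set4Δ cells, against 135, 105 and 74.0 in wild-type cells (log2 fold change 0.25, 95% interval -0.29 to 0.78). Its partner in sequence, YPS6, had 701, 638 and 467 in set4Δ cells, against 353, 305 and 257 in wild-type cells. The groups of YPS6 did not overlap, and its log2 fold change was 0.97 (adjusted p = 0.063 from limma). Without set4Δ library 3 it was 1.14 and passed the test (adjusted p = 0.021 from limma). Leaving out any other library in turn gave no call for YPS6, with adjusted p of 0.13 to 0.24 from limma.

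VEL1 had 74.8, 47.8 and 102 normalized counts in set4Δ cells, against 108, 81.2 and 114 in wild-type cells. The highest set4Δ library lay inside the wild-type range and the other two below it, for a log2 fold change of -0.48 (95% interval -1.15 to 0.19, adjusted p = 0.54 from limma). MNT2 had 369, 401 and 406 normalized counts in set4Δ cells, against 478, 432 and 442 in wild-type cells. It was the 1 gene of the 7 whose groups did not overlap, against 19.6% of all genes tested, and its log2 fold change of -0.20 (95% interval -0.39 to -0.01, unadjusted p = 0.041) had an adjusted p of 0.35 from limma. ADH4 had 654, 674 and 600 normalized counts in set4Δ cells, against 661, 724 and 698 in wild-type cells (log2 fold change -0.11, 95% interval -0.30 to 0.07). Intervals were narrow for MNT2 and ADH4, with 378 to 764 reads a library, and wider for the genes nearer to the telomere, with 7 to 154. Without set4Δ library 3 none of the 7 was called either, although YGL262W then had a log2 fold change of -0.14, and VEL1 one of -0.73 (adjusted p = 0.23 from limma). The others were then at 0.48 for COS12, -0.51 for YGL260W, 0.32 for YPS5, -0.23 for MNT2 and -0.06 for ADH4.

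**Figure D1:**
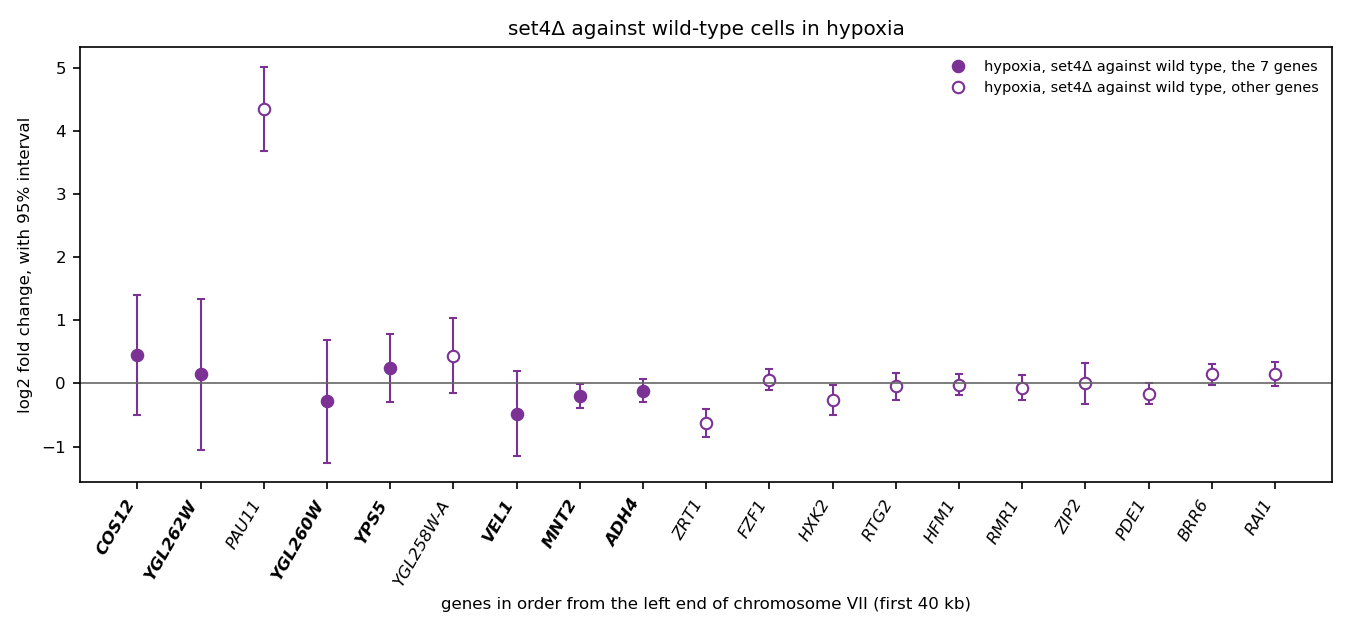
log2 fold changes (set4Δ over wild type, hypoxia) with 95% intervals for the 19 measured genes of the first 40 kb of the left end of chromosome VII, in order from the telomere, filled for the 7 genes and open for others. PAU11 stands at 4.36, and the filled points lie between -0.48 and 0.45.

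Among the 10 measured genes from the end of ADH4 to 40 kb, 1 was called, and it was lower. This was ZRT1, the high-affinity zinc transporter gene next to ADH4 among the genes measured, with 629, 698 and 570 normalized counts in set4Δ cells, against 949, 1044 and 931 in wild-type cells. The groups were apart, and the log2 fold change was -0.63 (adjusted p = 0.036 from limma). Without set4Δ library 3 it was -0.55 (adjusted p = 0.049 from limma), and leaving out any of the other 5 libraries in turn ended the call, with adjusted p of 0.068 to 0.18. The genes that lay between PAU11 and ZRT1, the 2 called genes of the first 40 kb, thus included 5 of the 7, none of them called.

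In air, none of the 5 genes measured passed the test between set4Δ and wild-type cells. limma called 0 of 5 higher, against 0.0172% of the 5814 genes tested, and 0 of 5 lower, against 0.0344%. Neither edgeR nor DESeq2 called any of them, and 1, COS12, had an unadjusted p under 0.05. The groups overlapped for each of the 5 genes, so that 0 of 5 were apart, against 10% of all genes tested. COS12 had 19.5, 36.9 and 38.9 normalized counts in set4Δ cells, against 66.6, 36.8 and 91.4 in wild-type cells. A single wild-type library lay within the set4Δ range and the other two above it, and the log2 fold change of -0.98 (95% interval -1.66 to -0.29, unadjusted p = 0.0084) had an adjusted p of 0.95 from limma. Left out in turn, the libraries gave COS12 log2 fold changes of -1.33 to -0.67, with the lowest adjusted p of 0.11 without wild-type library 2.

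The other members differed less in air. YPS5 had 28.7, 30.3 and 21.1 normalized counts in set4Δ cells, against 37.2, 21.3 and 33.9 in wild-type cells (log2 fold change -0.18, 95% interval -0.78 to 0.43). VEL1 had 46.2, 46.3 and 46.6 in set4Δ cells, against 48.5, 35.8 and 43.2 in wild-type cells (log2 fold change 0.13, 95% interval -0.30 to 0.56). For both genes the ranges overlapped, and the 3 set4Δ libraries of VEL1 lay closer together than those of any other member. MNT2 had 715, 884 and 834 normalized counts in set4Δ cells, against 931, 822 and 838 in wild-type cells, and ADH4 had 1047, 1060 and 1131, against 1138, 977 and 1030. Their log2 fold changes were -0.09 (95% interval -0.27 to 0.08) and 0.04 (95% interval -0.10 to 0.19), intervals that leave out a 1.5-fold difference in either direction.

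In set4Δ cells the genes of the left end responded to hypoxia in different directions. YPS5 and COS12 were higher in hypoxia by more than 2-fold and VEL1 by less, while MNT2 and ADH4 were lower by less than 2-fold. Asking for an adjusted p of at most 0.05 and at least a 2-fold change in either direction, limma called 2 of 5 genes higher, against 18.6% of the 6058 genes tested, and 0 of 5 lower, against 15.5%. VEL1, MNT2 and ADH4 passed the adjusted p but not the size. Groups did not overlap for any of the 5 genes, against 82.9% of all genes tested, so that separation of the groups was the rule in this comparison. YPS5 had 142, 123 and 112 normalized counts in hypoxic set4Δ cells, against 28.2, 30.2 and 20.6 in set4Δ cells in air (log2 fold change 2.22, SE 0.20, adjusted p = 2.2e-05 from limma). Its 3 hypoxic libraries were all above 100 and its 3 libraries in air all below 31.

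COS12 had 98.8, 44.7 and 61.1 normalized counts in hypoxic set4Δ cells, against 19.2, 36.9 and 37.9 in set4Δ cells in air. The nearest values, 44.7 and 37.9, were close, and the log2 fold change was 1.09 (SE 0.36, 95% interval 0.24 to 1.93, adjusted p = 0.025 from limma). The call rests on the highest hypoxic and the lowest aerobic library, since the log2 fold change was 0.78 (adjusted p = 0.083 from limma) without hypoxic library 1, and again 0.78 (adjusted p = 0.080 from limma) without aerobic library 1. Without hypoxic library 3 it was 1.13. It was 0.99, just under the size asked for, with 5 added before taking logarithms, and 0.19 under quantile normalization. That scaling moved the median of all genes by -0.14 on the log2 scale, but the members with low counts by more, with YPS5 at 1.39 against 2.22. MNT2 and ADH4 moved less, to -1.11 from -0.97 and to -0.78 from -0.68. VEL1 had 77.6, 49.9 and 104 in hypoxic cells, against 45.4, 46.3 and 45.4 in air. The values in air were nearly equal and those in hypoxia spread over a 2-fold range, for a log2 fold change of 0.68 (SE 0.26, adjusted p = 0.041 from limma). It was 0.44 without hypoxic library 3 and -0.14 under quantile normalization, and in 5 of the 6 fits that leave out 1 library, all but that without hypoxic library 2, its adjusted p was 0.088 to 0.099, so that it no longer passed.

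MNT2 had 382, 419 and 417 normalized counts in hypoxic set4Δ cells, against 702, 884 and 813 in air (log2 fold change -0.97, SE 0.10, adjusted p = 4.9e-05 from limma). ADH4 had 678, 704 and 615 in hypoxic cells, against 1028, 1060 and 1103 in air (log2 fold change -0.68, SE 0.08, adjusted p = 8.1e-05 from limma). Neither reached the 2-fold size, though MNT2 did at -1.06 without aerobic library 1 and at -1.11 under quantile normalization. Both genes were lower in every hypoxic library than in any library in air. Without hypoxic library 3 the log2 fold changes were -0.99 for MNT2, -0.62 for ADH4 and 2.30 for YPS5.

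In wild-type cells YPS5 and VEL1 were higher in hypoxia, MNT2 and ADH4 were lower by less than 2-fold, and COS12 overlapped between the conditions. By the same criteria limma called 2 of 5 genes higher, against 18.1% of the 6033 genes tested, and 0 of 5 lower, against 14.4%. MNT2 and ADH4 passed the adjusted p but not the size. Groups did not overlap for 4 of the 5 genes, against 82.7% of all genes tested.

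YPS5 had 138, 107 and 75.6 normalized counts in hypoxic wild-type cells, against 35.9, 20.4 and 32.3 in wild-type cells in air. The lowest hypoxic library, at 75.6, was far above the highest in air, at 35.9, and the log2 fold change was 1.81 (SE 0.29, adjusted p = 4.8e-04 from limma). VEL1 had 110, 82.4 and 117 in hypoxic cells, against 46.7, 34.4 and 41.2 in air (log2 fold change 1.31, SE 0.20, adjusted p = 3.4e-04 from limma). YOR387C, the paralog of VEL1 on another chromosome, had a log2 fold change of 0.96 (adjusted p = 4.9e-04 from limma), just under the size asked for. COS12 had 68.3, 27.9 and 52.3 in hypoxic cells, against 64.1, 35.3 and 87.3 in air, a log2 fold change of -0.32 (95% interval -1.26 to 0.62) that became 0.04 without hypoxic library 2.

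MNT2 had 487, 439 and 452 normalized counts in hypoxic wild-type cells, against 897, 789 and 800 in air, with no overlap (log2 fold change -0.85, SE 0.08, adjusted p = 2.5e-05 from limma). ADH4 had 673, 735 and 713 in hypoxic cells, against 1096, 938 and 983 in air (log2 fold change -0.51, SE 0.08, adjusted p = 5.1e-04 from limma). Both genes thus fell, each in all 3 hypoxic libraries relative to all 3 in air, as in set4Δ cells. Under quantile normalization, which moved the median of all genes by -0.15 on the log2 scale, VEL1 was at 0.52 and no longer called higher, and MNT2 at -1.01 and COS12 at -1.09 were called lower.

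**Figure D2:**
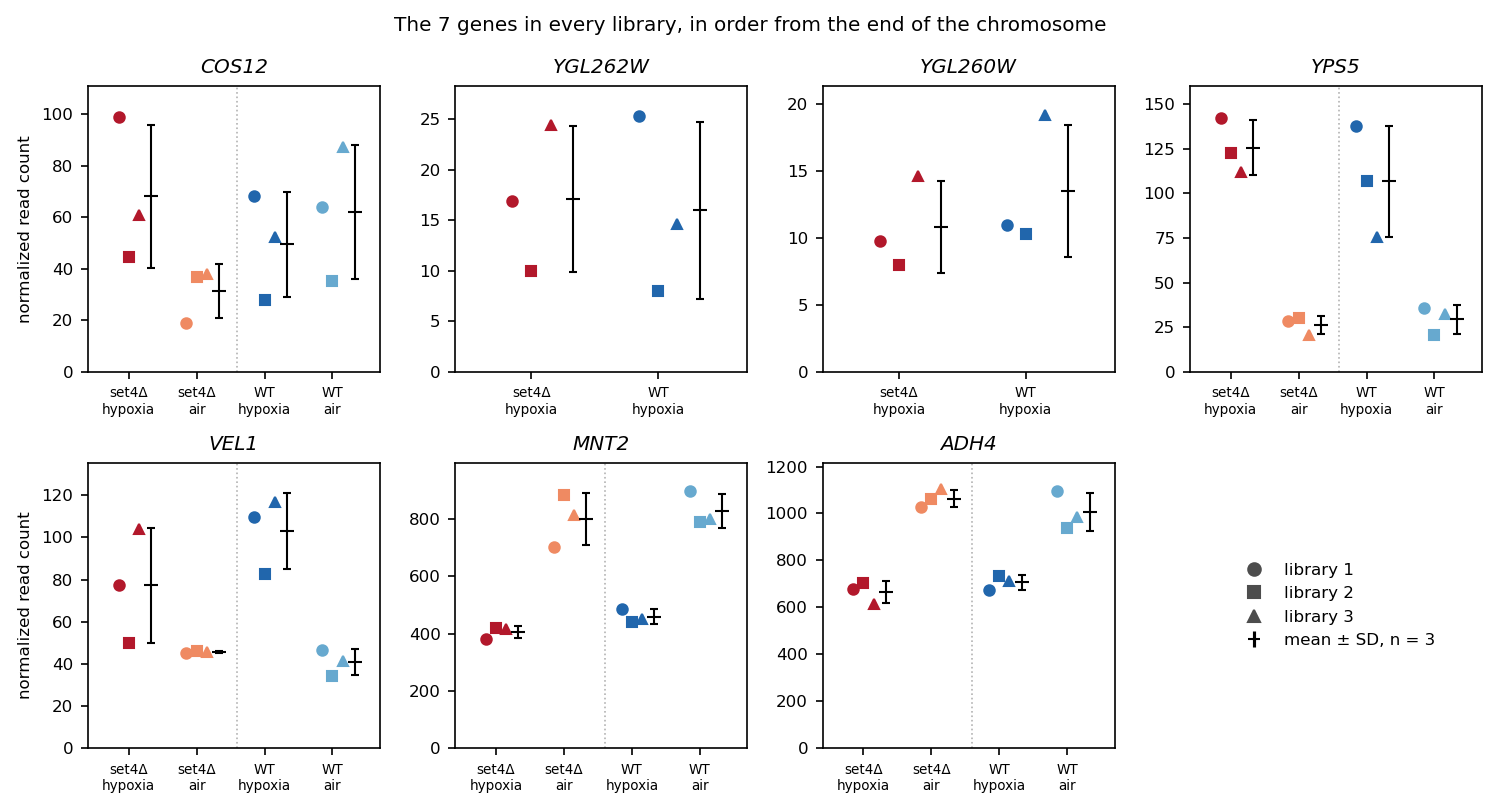
Normalized read counts (vertical axes from 0) of the 7 genes in each library, with circles, squares and triangles for libraries 1, 2 and 3 and a bar for the mean ± SD of the group, set4Δ cells left of the dotted line and wild-type cells right of it. The 2 sides come from separately normalized tables, YGL262W and YGL260W are shown in hypoxia only, and YPS5 lies above 75 in every hypoxic library and below 36 in every library in air.

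The difference between the responses, tested in 1 model over the 12 libraries as the set4Δ response minus the wild-type response, passed for none of the 5 genes. limma called 0 of 5 higher, against 0.913% of the 6025 genes tested, and 0 of 5 lower, against 0.432%. edgeR and DESeq2 also called none, and COS12 was the only one with an unadjusted p under 0.05. For COS12 the difference was 1.41 on the log2 scale (95% interval 0.09 to 2.72, unadjusted p = 0.038, adjusted p = 0.38 from limma), and for VEL1 it was -0.63 (95% interval -1.37 to 0.11). COS12 was thus called higher in hypoxia in set4Δ cells and VEL1 in wild-type cells, but no difference between the genotypes in either response was shown. For YPS5 the difference was 0.41 (95% interval -0.39 to 1.21), for MNT2 -0.12 (95% interval -0.40 to 0.16) and for ADH4 -0.17 (95% interval -0.41 to 0.06). PAU11, counted on fewer than 10 reads a library in air, had a difference in the same model of 4.70 (SE 0.53, adjusted p = 8.2e-04 from limma and 0.048 from edgeR). Without set4Δ hypoxic library 3 it was 4.59 for PAU11, 1.45 for COS12, 0.49 for YPS5, -0.87 for VEL1, -0.14 for MNT2 and -0.12 for ADH4, and none of the 5 genes was called.

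**Figure D3:**
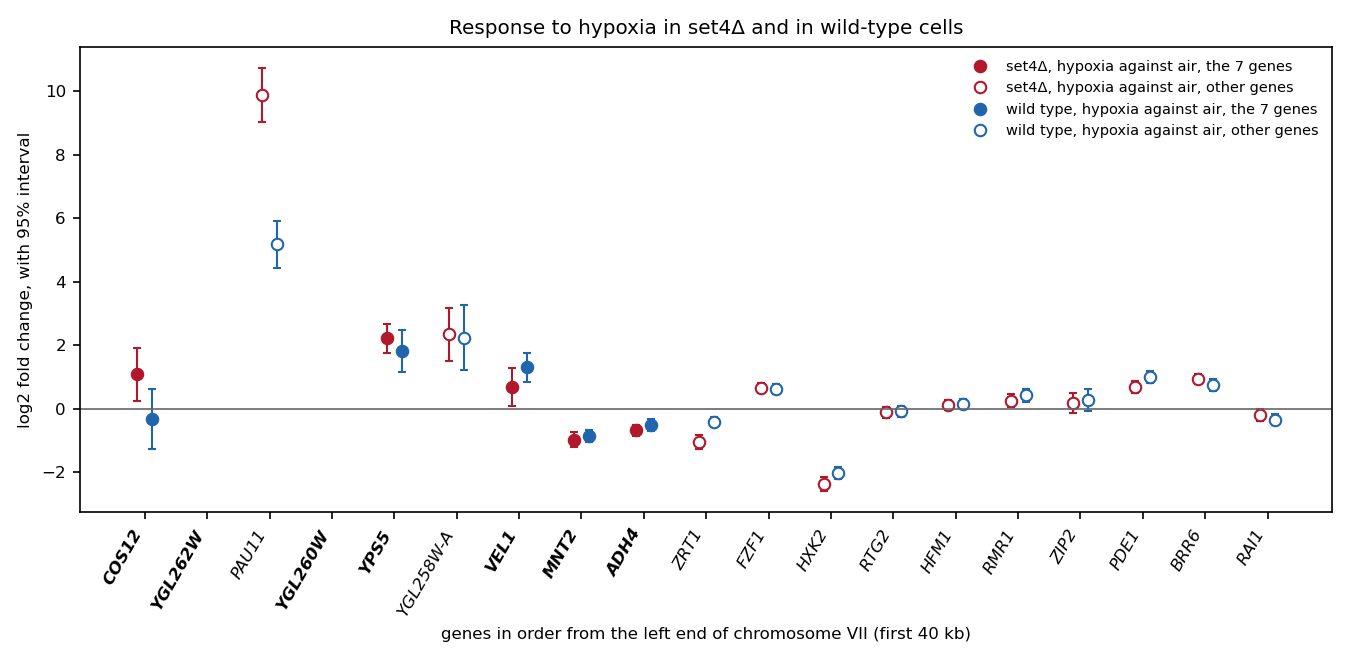
log2 fold changes (hypoxia over air) with 95% intervals along the first 40 kb of the left end, for set4Δ cells (left of each pair) and wild-type cells (right), filled for the 7 genes and open for others. YPS5 lies above 1 in both genotypes and MNT2 and ADH4 below 0 in both, while COS12 is at 1.09 and -0.32, and the points of PAU11 rest on fewer than 10 reads a library in air.

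The levels of the members ran from near the bottom of all genes to about the middle. Whole gene lengths were used, though 72.5% of the words of YGL260W, 63.1% of those of PAU11 and 38.3% of those of YPS5 occur elsewhere. How reads there were counted is not stated, so that the levels of these genes may be off against the others. Counted per kb of gene, which allows genes to be compared within a library, ADH4 was the highest member in every group. In hypoxia it had 559 ± 33.6 normalized counts per kb (SD, n = 3) in set4Δ cells, against 604 ± 27.3 (SD, n = 3) in wild-type cells, above 36.5% and 39.4% of the 5867 genes with a length. YPS5 had 244 ± 28.7 per kb in set4Δ cells, against 210 ± 61.6 in wild-type cells, and MNT2 had 234 ± 12.2 in set4Δ cells, against 269 ± 14.6 in wild-type cells. YPS5 and MNT2 were neighbours in the order of levels, and their libraries overlapped in both genotypes. VEL1 had 120 ± 43.3 per kb in set4Δ cells, against 163 ± 28.2 in wild-type cells.

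The 3 members nearest to the telomere had the lowest means, and in set4Δ cells the libraries of COS12 overlapped those of VEL1, the next in the order. COS12 had 57.6 ± 23.4 normalized counts per kb in hypoxic set4Δ cells, against 42.5 ± 17.5 in hypoxic wild-type cells (mean ± SD of 3 libraries). YGL260W had 46.8 ± 14.9 in set4Δ cells, against 58.4 ± 21.4 in wild-type cells, and YGL262W 32.4 ± 13.7, against 30.3 ± 16.5. These 3 lay above 0.852% to 1.81% of all genes, and the libraries of neighbours in their order overlapped. Between them on the chromosome, PAU11 had 13953 ± 3085 per kb in set4Δ cells, against 694 ± 227 in wild-type cells, above 97.4% and 45.2% of all genes. In air the order of the 5 measured members was the same in both genotypes, from ADH4 through MNT2, VEL1 and YPS5 to COS12. In set4Δ cells the libraries of neighbours in that order did not overlap, and in wild-type cells those of VEL1, YPS5 and COS12 did.

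**Figure D4:**
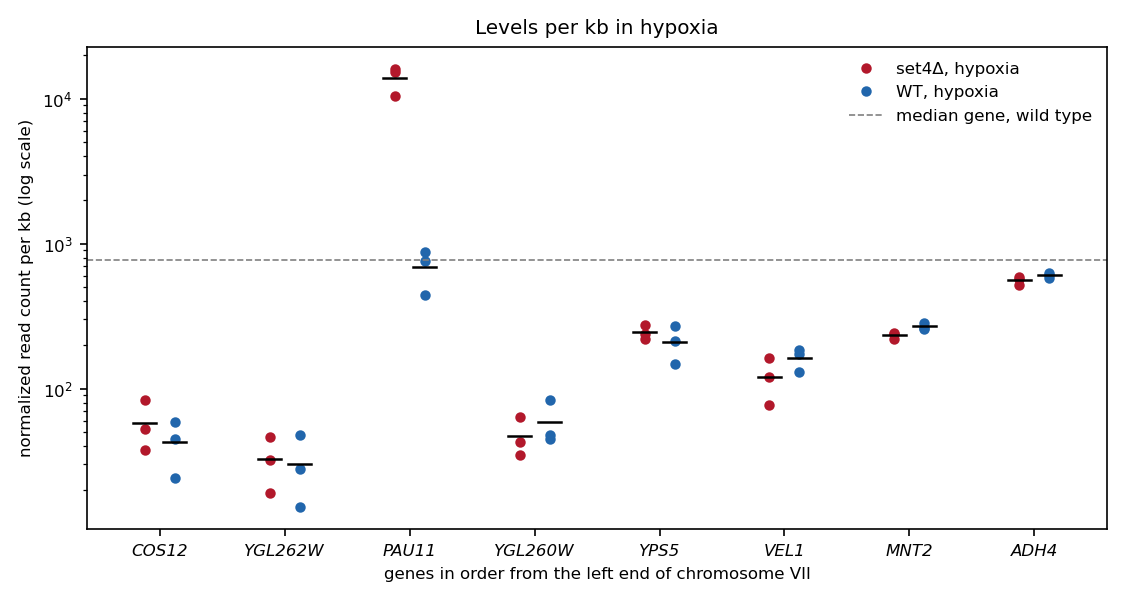
Normalized read counts per kb (log axis) in hypoxia, set4Δ (left of each pair) and wild-type libraries (right), for the 7 genes and PAU11 in order from the telomere, with a bar for the mean of 3 libraries and a dashed line for the median gene in wild-type cells. The members lie below the dashed line, the 3 nearest to the telomere below 100, and PAU11 is on both sides of the line.

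The spread between libraries also differed among members. The coefficient of variation of COS12 was 33.6% to 41.9% in the 4 groups of the response tables, on 19 to 108 reads a library. That of ADH4 was 3.51% to 8.09% and that of MNT2 5.06% to 11.5%, on 378 to 1217 reads. VEL1 ranged most, with 35.1% in hypoxic set4Δ cells and 1.16% in set4Δ cells in air, against 17.6% in hypoxic wild-type cells and 15.2% in wild-type cells in air. Groups of 3 libraries give these values with little precision.

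Genes related to the members were read from lists chosen with earlier results of these data known. Of 11 COS genes tested, 6 were called higher in hypoxia and 0 lower in set4Δ cells, against 4 and 0 in wild-type cells. Over all genes 18.6% were called higher and 15.5% lower in set4Δ cells, against 18.1% and 14.4% in wild-type cells, the shares against which the counts of each list stand. Among genes within 16307 bp of the other chromosome ends, 59.9% were called higher in set4Δ cells, against 52.4% in wild-type cells. These shares can include genes with a mean below 10 in air, which were tested only if they reached 10 in hypoxia. The number of such genes was not counted. The 6 COS genes include COS12. The COS genes had a median log2 fold change of 1.09 in set4Δ cells, against 0.55 in wild-type cells, where all genes had 0.01. COS12 was the only COS gene with a negative log2 fold change in wild-type cells, though its 95% interval, -1.26 to 0.62, includes 0. COS4 and COS10 had the largest values there, 2.67 and 2.33. No COS gene was called between the genotypes in hypoxia or in air by limma, the median being 0.12 in hypoxia, and none in the difference of the responses.

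Of 6 yapsin genes, 3 were called higher in hypoxia and 1 lower in set4Δ cells (all genes 18.6% and 15.5%), against 2 and 1 in wild-type cells (all genes 18.1% and 14.4%), too few genes to set against these shares. YPS5 and YPS1, which encodes the main yapsin, were called higher in both genotypes, and MKC7 lower in both, with log2 fold changes of -2.29 in set4Δ cells, against -2.68 in wild-type cells. YPS6 was called higher in set4Δ cells alone, at 1.47 against 0.21 in wild-type cells, and it was the 1 yapsin gene called in the difference of the responses (1.26, adjusted p = 0.022 from limma). That call was lost in 6 of the 12 fits that leave out 1 library, with adjusted p of 0.0019 to 0.064 over the 12. How far reads in the stretch shared with YPS6 enter the counts of YPS5 was not tested.

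Of 17 genes of the zinc regulon, activated by Zap1 when zinc is scarce, 5 were called higher and 5 lower in hypoxia in set4Δ cells (all genes 18.6% and 15.5%), against 6 and 4 in wild-type cells (all genes 18.1% and 14.4%). The medians, 0.09 in set4Δ cells, against -0.08 in wild-type cells, were close to those of all genes. The 2 members in this list went in different directions, VEL1 up and ADH4 down, as did ZAP1 itself (1.72 in set4Δ cells, against 1.60 in wild-type cells) and ZRT1 (-1.04 and -0.41). Between the genotypes in hypoxia 1 of 17 was called higher, NRG2 (1.06, adjusted p = 0.021 from limma), and 1 lower, ZRT1 (all genes 0.817% and 0.391%). Both were also called in the difference of the responses, at 1.00 and -0.63 (adjusted p = 0.0053 and 0.026 from limma). That call of ZRT1 was lost in several fits that leave out 1 library, with adjusted p of up to 0.082 from limma. Of 4 genes of the MNN1 family, MNN1 was called lower in both genotypes, at -2.61 in set4Δ cells, against -2.18 in wild-type cells, and MNT2, MNT3 and MNT4 stayed under the size asked for. Of 8 alcohol dehydrogenase genes, ADH5 and ADH7 were called higher and ADH1 lower in both genotypes, while ADH4 was not called.

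Of 9 genes in a list of silencing proteins, not all of them specific to telomeres, none was called between the genotypes in hypoxia or in air by limma. SIR3, which encodes a structural protein of silent chromatin, had a log2 fold change of -0.37 in hypoxia (set4Δ over wild type, adjusted p = 0.080 from limma). In the response to hypoxia SIR3 was at -1.10 in set4Δ cells, against -0.80 in wild-type cells. Both passed the adjusted p, but only the fall in set4Δ cells reached the 2-fold size and was called. The difference of the responses was -0.30 (adjusted p = 0.19 from limma) and was not called. SIR1 was called higher in both genotypes, at 1.57 in set4Δ cells, against 1.46 in wild-type cells. The part of these changes in the levels of the 7 genes was not tested.

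Against the other chromosome ends, the left end of chromosome VII was set by the 9 genes within 16307 bp. In set4Δ cells, 4 of its 7 tested genes were called higher in hypoxia, against 59.9% of 147 genes as near to the other ends, and in wild-type cells 4 of 7, against 52.4% of 143. The members alone gave 2 of 5 in each genotype. Of the called genes, PAU11 had a mean below 10 in air in both genotypes, and YGL258W-A in wild-type cells. There they met the limit of a mean of 10 only in hypoxia, so that they could only be called higher. All 6058 and 6033 genes listed in the set4Δ and wild-type responses met this limit. How many genes at the other ends were low in air was not counted, so their shares may be raised in this way. Between the genotypes in hypoxia 1 of 9 was called higher, PAU11, against 6.08% of 148 genes at other ends. In that comparison the log2 fold changes of the 9 genes had their median at 0.14, those at the other ends at 0.13 and those of all genes at -0.01, and that of the 7 members alone was -0.11. Over the 10 genes from the end of ADH4 to 40 kb, the medians in the responses were 0.15 in set4Δ cells, against 0.21 in wild-type cells.

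Closeness of genes to each member was the root mean square difference over the 4 log2 fold changes, taken among 5803 genes. The closest genes lay on several chromosomes. For COS12 they were YBL111C, near the left end of chromosome II (difference 0.226), and HXT14 (0.343), further away than for any of the other 4 genes. For VEL1 they were AQY2 (0.0127) and HOR7 (0.0518), for YPS5 DIP5 (0.0548) and PEX21 (0.0595), for MNT2 DCW1 (0.0386) and HGH1 (0.0388), and for ADH4 TEL2 (0.00809) and YKR005C (0.0114). Of these, AQY2, HXT14 and DIP5 lay within 36361, 40329 and 42869 bp of a chromosome end. No member was among the 2 genes closest to another member. The SE of the 4 log2 fold changes was 0.067 to 0.080 for ADH4 and 0.20 to 0.28 for VEL1, above the differences given for them. Which gene came first is therefore not resolved. COS12, with the more distant genes, also had the larger SE, 0.32 to 0.41.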

How the data were processed

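Total RNA depleted of rRNA was sequenced from stranded libraries, 12 in all. Trimming with Trimmomatic 0.36, alignment with STAR 2.5.2b and counting with featureCounts (Subread 1.5.2) were done by the authors, who divided the counts by DESeq2 size factors in each of 4 tables, and the deposited signal values are these normalized counts. The sources used here state no genome build, strand setting or rule for multimapping reads, so that reads of overlapping or antisense transcripts cannot be told apart. Columns with the authors' fold changes, p-values and local false discovery rates were not used.

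Values were whole multiples of 1 read in all 24 columns (100% of values below 2000 reads, within 0.02). By these reads, libraries were matched between tables, which exchange the numbers 1 and 3 in the genotype comparisons, and numbers follow the response tables. The third wild-type column of the table for air, of 5825 values, was not aligned with the gene names and was replaced by the same library of the wild-type response table, rescaled, with 8 genes left out. The hypoxic table has 1 row without a gene name, which was left out.

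For each comparison, limma 3.58.1 (R 4.3.3, variance trend, not robust) was fitted to log2(value + 1), keeping genes whose mean reached 10 in either group, with Benjamini-Hochberg adjustment over the table and a threshold of 0.05. Calls in a response to hypoxia were limited to changes of 2-fold or more. Since whole reads were recovered, edgeR 4.0.16 (quasi-likelihood) and DESeq2 1.42.0 were run on them as alternatives chosen after seeing the data. edgeR called 2, 75, 1966, 2076 and 79 genes in air, in hypoxia, in the wild-type response, in the set4Δ response and in their difference, against 3, 71, 1958, 2066 and 81 with limma. limma found 280, 774, 4877, 4887 and 717 genes at an unadjusted p of at most 0.05. With 3 libraries against 3, an exact permutation test of 1 gene cannot go below p = 0.1, and none was run. The fits were also run on simulated counts, with the same setting for the spread between libraries in every gene and with independent libraries. The hypoxic libraries were not like that, so that the simulation cannot speak for the comparisons that use them. Genes were placed on R64, whose annotation also gave lengths and upstream windows of 500 bases. Python 3.11.15 with pandas 2.3.3 and matplotlib 3.10.9 was used for summaries.

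The 7 genes and the lists were chosen with earlier results of these data known. Named genes are the 7 genes, SET4, genes of the first 40 kb, up to 4 members of each list and the 2 genes closest to each member, and YPS6 and YOR387C as the partners in shared sequence.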

Additional observations from a re-analysis of the deposited data

How the results depend on the processing

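No member that was tested, up to 7 in hypoxia (5 with a mean of at least 50) and 5 in air and in the difference of the responses, was called there under any alternative run. In the set4Δ response the number of members called higher, 2, was 1 with a pseudocount of 5, with quantile normalization and with a replicate block, and 1 to 2 when libraries were left out in turn. The number called lower, 0, was 1 with quantile normalization and 0 to 1 with libraries left out. In the wild-type response quantile normalization gave 1 higher and 2 lower, against 2 and 0. YPS5 was called in both responses under every alternative. Under quantile normalization its log2 fold change was smaller, at 1.39 in set4Δ cells, against 2.22 in the main fit, and 1.05 in wild-type cells, against 1.81. COS12 and VEL1, also on low counts, moved downward too in both responses, and MNT2 and ADH4 moved less. The size of the responses of the low-count members thus depends on the scaling.

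Some log2 fold changes that passed no threshold turned direction when 1 library was left out. That of ADH4 in air ranged over -0.0048 to 0.11 (negative without wild-type library 2), that of YGL262W in hypoxia over -0.25 to 0.53 (negative on leaving out set4Δ library 3 or wild-type library 2) and that of COS12 in the wild-type response over -0.68 to 0.036 (positive without hypoxic library 2). VEL1 in the set4Δ response was at -0.14 with quantile normalization.

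Over all genes, the 3 calls in air became 1 with quantile normalization, 9 with DESeq2 and 1 to 7 with libraries left out. The 71 calls between genotypes in hypoxia became 245 with DESeq2 and 17 to 93 with libraries left out, and the 81 calls in the difference of the responses 172 with DESeq2 and 31 to 119 with libraries left out. The cause was not tested. Calls higher and lower in the responses, 1128 and 938 in set4Δ cells and 1091 and 867 in wild-type cells, were 914 and 1052 in set4Δ cells and 901 and 983 in wild-type cells with quantile normalization.

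Replicate numbers were not taken as pairs, which needed a correlation above 0.1 for every number. Deviations of same-numbered libraries correlated at 0.026, 0.72 and 0.74 across genes in hypoxia, where numbers 2 and 3 went together, and at -0.27, 0.23 and 0.035 in air. In hypoxia 3 of 6 libraries, and in air 2 of 6, were closest to the library of their own number in the other genotype. A block for the number gave 436 calls in hypoxia, against 71, and COS12 in the set4Δ response then had an adjusted p of 0.062 from limma. Between the genotypes in hypoxia the block gave an adjusted p from limma of 0.18 for COS12 and 0.12 for VEL1. Low counts limit YGL262W and YGL260W most, with 7 to 25 reads a library.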
